A study of Mus musculus with 5 samples.

Results

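DMSO-only peaks are intervals called as β-catenin-bound in vehicle-treated mouse embryonic stem cells that share no base with any peak of the same cells under CHIR99021. They were taken here on chromosomes 1 to 7 and 10 to 19, called the 17 autosomes below. Of 9963 DMSO peaks on these chromosomes, 8408 (84.4%, 95% exact interval 83.7 to 85.1%) met this rule and 1555 lay in a CHIR99021 peak. The whole DMSO list held 12734 peaks, and 85.0% of it met the same overlap rule. The peaks were thus chosen by the measured start and end of called intervals in all 3 lists, so the share, and every value of the DMSO list set beside it, is a description and carries no test.

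β-Catenin, encoded by Ctnnb1, joins cadherins at the cell membrane and acts as the transcriptional partner of TCF/LEF factors in canonical Wnt signalling. GSK3 marks the free protein for degradation, and CHIR99021 inhibits that kinase, so that β-catenin gathers in the nucleus. In embryonic stem cells it is known for relieving repression by Tcf7l1 at pluripotency genes. It binds DNA through such factors and not by itself.

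All samples came from V6.5 embryonic stem cells with a biotin and 3xFLAG tag knocked into Ctnnb1, which also express the biotin ligase BirA. Culture was on feeder cells with LIF and serum, and a floating fraction enriched for stem cells was collected. The 3 ChIP libraries were CHIR99021 (3 µM) captured by anti-FLAG, CHIR99021 (3 µM) captured by streptavidin, and DMSO vehicle captured by streptavidin, each from 10000000 cells, with 1 input library for each treatment. The dose is that of the treatment label, while a protocol text of the same samples gives it as 3 mM. The treatment lasted 16 hours by the samples' protocol and 24 hours by the series text. Streptavidin is the labelled capture of the DMSO library, and its table's header lists a biotin alignment as ChIP input to a run with FLAG in its name. Each group had 1 library of 1 knock-in line, no library without the tag was analysed here, and no spread between replicates could be measured. Intervals below are exact (Clopper-Pearson) over peaks and cover counting error only.

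Depth sets what a missing call can mean, but no tag total stands in the DMSO header. The total could be worked out from the fold enrichments, which MACS forms as the tag pile-up at the summit over the expected background. Where the genome-wide background is used, fold values are whole multiples of 1 step, which equals the effective genome size divided by the product of 2 shifts and the number of unique tags. The shift, as d is called here, is the total distance between tags of both strands that MACS closes by moving them towards each other. In the anti-FLAG list the step was 0.3138, which gave 16100000 unique tags after rounding. Before rounding, the estimate was 0.021% off the 16100920 of the header. In the CHIR99021 streptavidin list the step was 0.366, which gave 11900000 after rounding. Its estimate before rounding was 0.016% off the header's 11934863. The DMSO step was 7.317 at a shift of 30 bp, which gave 4260000 unique tags. On this estimate the anti-FLAG library was 3.78 times and the CHIR99021 streptavidin library 2.8 times as deep as the DMSO library.

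Most DMSO-only peaks held the fewest tags found in the list. Exactly 6 raw tags were present in 6713 of 8408 (79.8%, interval 79.0 to 80.7%), and 8158 (97.0%) held 6 to 8. The other classes were 123 peaks of 9 tags, 112 of 10 to 14 and 15 of 15 or more. DMSO peaks of the same autosomes that lay in a CHIR99021 peak held a median of 8 tags, and 34.9% of them (interval 32.5 to 37.3%) held 6. At least 10 tags were present in 127 DMSO-only peaks (1.51%, interval 1.26 to 1.79%), against 5.8% of all DMSO peaks on these autosomes and 29.0% (26.8 to 31.3%) of those in a CHIR99021 peak. Read the other way, the DMSO-only share fell from 92.5% of peaks of 6 tags (interval 91.9 to 93.1%) through 49.6% at 9 tags (43.2 to 56.0%) to 31.5% at 10 to 14 tags (26.7 to 36.7%). Among peaks of 15 or more tags it was 6.73% (3.81 to 10.9%).

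A count of 6 carries an exact Poisson interval of 2.2 to 13.1 tags, which takes no account of its selection by the calling threshold. It amounts to 1.41 per 1000000 unique tags at the estimated DMSO depth. The same rate would give 22.7 tags in the anti-FLAG library and 16.8 in the CHIR99021 streptavidin library, whose smallest called peaks held 14 and 13. Those peaks were called with shifts of 185 and 214 bp and are longer, so these rates are set side by side and do not measure a difference. Tags of the CHIR99021 libraries inside DMSO-only intervals were not analysed here.

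**Figure D1:**
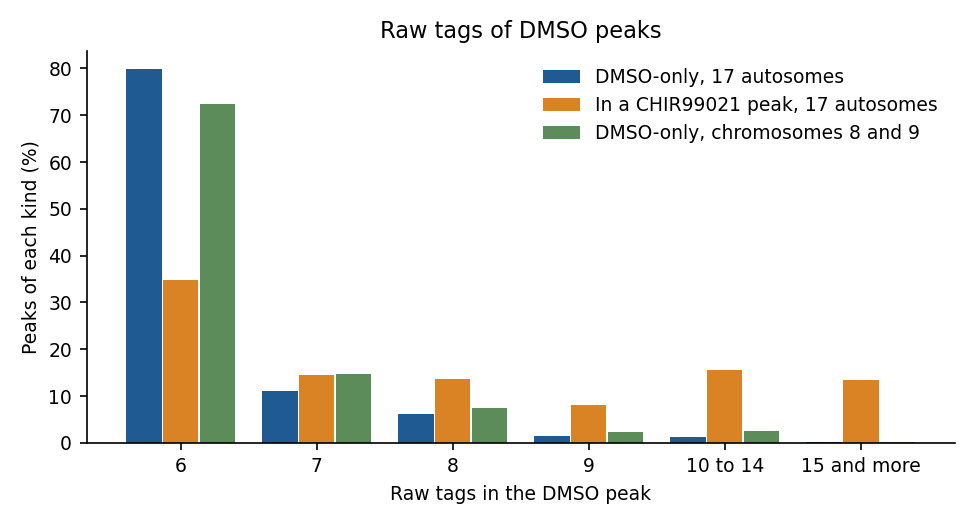
Percent of peaks (vertical axis) by raw tags in the DMSO peak (horizontal axis) for DMSO-only peaks of the 17 autosomes, DMSO peaks of the same autosomes in a CHIR99021 peak, and DMSO-only peaks of chromosomes 8 and 9. The class of 6 tags holds 79.8%, 34.9% and 72.5% of the 3 kinds, and the class of 15 or more holds 0.178%, 13.4% and 0.259%.

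DMSO-only peaks were also short. Their median length was 74 bp, their 5th and 95th percentiles were 45 and 89 bp, and 8140 (96.8%) measured at most 90 bp. Every one of the 6713 peaks of 6 tags measured between 33 and 90 bp, and 90 bp is 3 times the shift of 30 bp. Length rose with tags, from a median of 72 bp at 6 tags to 93 bp at 9 tags, 99 bp at 10 to 14 and 250 bp at 15 or more. Peaks over 200 bp numbered 9 (0.107%), against 6.3% of DMSO peaks in a CHIR99021 peak. The summit lay a median of 24 bp from the nearer end, with 5th and 95th percentiles of 17 and 30 bp. All DMSO-only peaks of the 17 autosomes together covered 608 kb and held 59376 tags, which is 1.39% of the estimated unique tags.

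Fold enrichment, the authors' value over the local background, had a median of 28.41 in DMSO-only peaks and 20.16 in DMSO peaks of the same autosomes within CHIR99021 peaks. The values were few: 314 distinct folds described 8408 peaks, and 1979 peaks shared the single value 29.27, which is 4 steps of 7.317. A further 701 stood at 43.90, or 6 steps, 329 at 5 steps and 67 at 3 steps. In all, 3156 DMSO-only peaks (37.5%) lay on a whole step, as the genome-wide background gives, against 9.65% of DMSO peaks in a CHIR99021 peak and 15.4% of DMSO-only peaks on chromosomes 8 and 9. The other 5252 lay off the step. Those on a step lay farther from CHIR99021 peaks, at a median of 45975 bp against 24035 bp.

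The DMSO-only peaks with the most tags had the lowest folds. The first was on chromosome 4 (79649062 to 79650995, mm9 as throughout), with 2664 tags over 1934 bp at a fold of 1.83. Next came a pair on chromosome 2, 324 bp apart. Its wider member (22444185 to 22445292) had 1999 tags at a fold of 1.32, and its narrower one (22445617 to 22446060) had 640 tags at a fold of 2.41 and the highest p score of all DMSO-only peaks here, 435.12. This p score is the caller's p-value as −log10, multiplied by 10. These 3 intervals alone held 5303 tags, or 8.93% of all tags in DMSO-only peaks.

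A second group stood near the start of chromosome 11, where 6 DMSO-only peaks lay within 62698 bp (3036576 to 3099273). The richest (3053426 to 3054413) had 174 tags at a fold of 3.60. The interval from 3062512 to 3063448 had 162 tags at 3.60, that from 3076929 to 3077701 had 133 at 3.99 and that from 3052289 to 3052982 had 118 at 4.48. The remaining ones, from 3036576 to 3036774 and from 3099024 to 3099273, had 39 and 36 tags at folds of 6.30 and 5.38. The 5 longest DMSO-only peaks were those on chromosome 4, the wider one on chromosome 2 and the 3 richest on chromosome 11. No DMSO peak below 3.2 Mb on chromosome 11 lay in a CHIR99021 peak, although 5 CHIR99021 peaks started there. The nearest to the 6 peaks was an anti-FLAG peak from 3170633, with 23 tags at a fold of 5.96.

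The only one of the 10 richest not yet named was a peak on chromosome 1 (34809867 to 34809968), with 78 tags in 102 bp at a fold of 4.83. Beyond those 10, and chosen after their values were seen, were 29698859 to 29698974 on chromosome 6 (31 tags, fold 7.27) and 86258033 to 86258244 on chromosome 4 (22 tags, fold 5.16). The interval 85277025 to 85277136 on chromosome 1 had 21 tags at a fold of 6.94, and 51420350 to 51420524 on chromosome 11 had 15 at 9.93. Of the 15 DMSO-only peaks with 15 or more tags, 14 thus had a fold under 10, against 28 of 208 (13.5%) among DMSO peaks in a CHIR99021 peak. Over all DMSO peaks on these autosomes 1.26% had such a fold, and over all DMSO-only peaks 56 of 8408 (0.666%). Without these 14 peaks the median tags, length and distances of the remaining 8394 lay within the intervals of the full set, with medians of 6 tags and 73 bp.

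**Figure D2:**
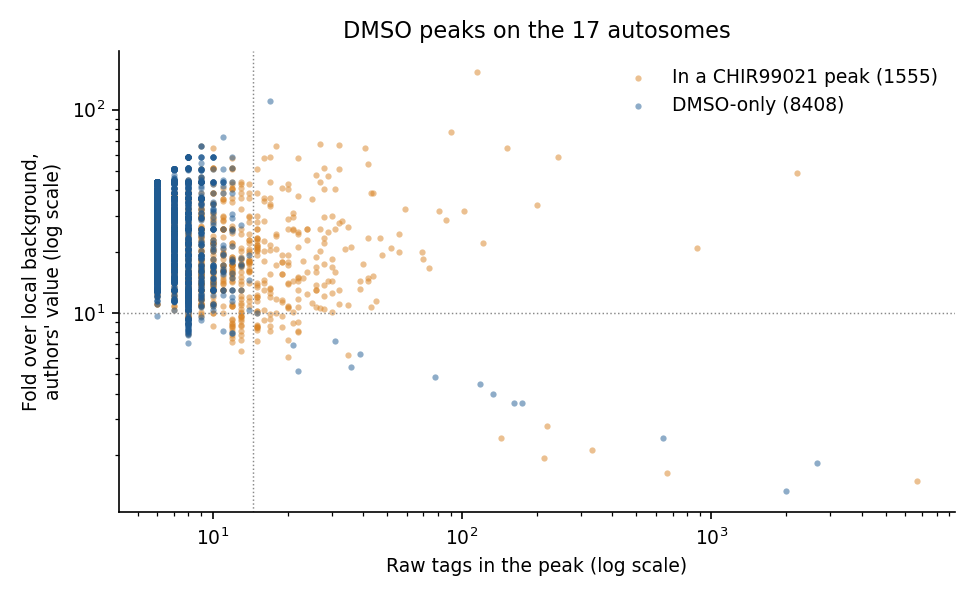
Fold over local background (vertical, log scale) against raw tags (horizontal, log scale) for the 8408 DMSO-only peaks and the 1555 DMSO peaks in a CHIR99021 peak on the 17 autosomes, 1 point a peak, with dotted lines between 14 and 15 tags and at a fold of 10. To the right of the vertical line 14 of 15 DMSO-only points lie under a fold of 10, and 28 of the 208 others do.

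The exception was on chromosome 19 (61342272 to 61342357). This interval of 86 bp held 17 tags at a fold of 109.75, which is 15 steps, and had the highest fold of DMSO-only peaks with at least 10 tags. It lay 8085 bp from the nearest CHIR99021 peak, an anti-FLAG peak of 21 tags from 61333449. Next by fold were chromosome 1 (25376395 to 25376481) with 11 tags at 73.17 and chromosome 13 (73246378 to 73246414) with 10 tags at 58.65. A fold of 58.53, or 8 steps, was shared by 21 DMSO-only peaks, of which 5 held at least 10 tags. That on chromosome 16 (92909006 to 92909095) held 12 tags. The other 4 held 10 tags each: 176102784 to 176102852 and 133194957 to 133195052 on chromosome 1, 47934490 to 47934564 on chromosome 14, and 131171199 to 131171292 on chromosome 3. The last named were chromosome 1 (148125503 to 148125541) with 12 tags at 51.61 and chromosome 18 (39127895 to 39127995) with 11 tags at 51.22.

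These 10 high-fold peaks differed widely in their surroundings. The one on chromosome 16 lay 99 bp from a CHIR99021 streptavidin peak from 92908123 (22 tags, fold 9.04) but 129518 bp from the nearest anti-FLAG peak. That on chromosome 18 lay 195 bp from a streptavidin peak from 39126924 (32 tags, fold 5.01) and 4154 bp from an anti-FLAG peak. On chromosome 13, peaks of both CHIR99021 lists stood 8842 and 8959 bp away, with 102 tags by anti-FLAG and 75 by streptavidin. Those on chromosome 1 from 176102784 and 133194957 lay 118234 and 128701 bp from the nearest CHIR99021 peak.

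DMSO-only peaks lay a median of 30993 bp from the nearest CHIR99021 peak (interval of the median 29873 to 32030 bp), with quartiles of 11004 and 70644 bp. A CHIR99021 peak lay within 100 bp of 31 (0.369%) and within 1000 bp of 272 (3.24%, interval 2.87 to 3.64%). Within 10000 bp it was 1955 (23.3%, 22.4 to 24.2%), and within 100000 bp 7040 (83.7%). For scale, all bases between the first and last peak of these autosomes outside CHIR99021 peaks were taken. Of these, 0.179% lay within 100 bp of a CHIR99021 peak, 1.73% within 1000 bp, 14.8% within 10000 bp and 68.6% within 100000 bp. This measure takes no account of where reads can be mapped, and how far that moved the values was not tested.

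The nearest peak was an anti-FLAG one for 4050 DMSO-only peaks (48.2%), a streptavidin one for 4347 (51.7%) and at equal distance for 11. It lay at lower coordinates for 4258 (50.6%, interval 49.6 to 51.7%). Both lists had a peak within 1000 bp in 86 cases (1.02%). The share within 1000 bp was 3.23% for peaks of 6 tags (2.82 to 3.68%), 2.91% for 7 (1.93 to 4.21%), 3.67% for 8 (2.22 to 5.67%), 1.63% for 9 (0.198 to 5.75%) and 6.25% for 10 to 14 (2.55 to 12.5%), with intervals that overlap. None of the 15 richest lay that near (interval 0.0 to 21.8%, which covers the shares of the other classes). Their median distance was 96460 bp, and 6 of them lay within 62698 bp on chromosome 11.

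**Figure D3:**
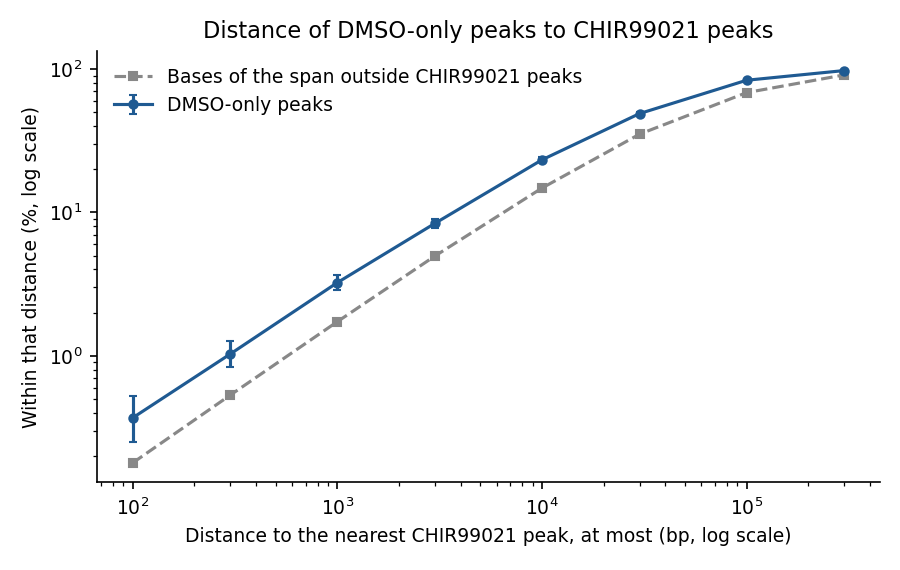
Percent of the 8408 DMSO-only peaks (circles, with 95% exact intervals) and of bases outside CHIR99021 peaks on the same span (squares) that lie within a given distance of a CHIR99021 peak, both axes on a log scale. At 1000 bp the values are 3.24% and 1.73%, and at 100000 bp they are 83.7% and 68.6%.

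At the edge of the overlap rule, the DMSO-only peak nearest to a CHIR99021 peak was on chromosome 12 (118488421 to 118488508). A single base separated its 6 tags from an anti-FLAG peak of 71 tags, and 122 bp from a streptavidin peak of 50 tags. Next were chromosome 11 (8540924 to 8540988), 10 bp from a streptavidin peak of 236 tags at a fold of 40.85, and chromosome 1 (194987150 to 194987229), 12 bp from an anti-FLAG peak of 27 tags. On chromosome 3 the interval from 34664222 to 34664281, with 7 tags, lay 14 bp from a streptavidin peak of 32 tags. On chromosome 1 that from 163001574 to 163001633, with 8 tags, lay 17 bp from one of 84 tags. Other DMSO peaks only just failed the rule and are not DMSO-only. The interval on chromosome 10 from 127735222 to 127735285 shared 6 bp with a streptavidin peak, and that on chromosome 7 from 71233173 to 71233234 shared 7 bp with an anti-FLAG peak. Intervals on chromosome 13 (from 35423442), chromosome 14 (from 99921319) and chromosome 18 (from 52624925) shared 9 bp each with anti-FLAG peaks. Of these 5, the first held 11 tags and the others 6.

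At the far end, and among peaks of at least 10 tags, the tag-rich interval on chromosome 4 led at 869023 bp. It was followed by the interval of 21 tags from 85277025 on chromosome 1, at 318103 bp. Peaks of 10 tags came next: 165175835 to 165175922 on chromosome 2 at 228332 bp, 63232828 to 63232919 on chromosome 17 at 192003 bp, and 127350434 to 127350545 on chromosome 2 at 189636 bp. Only 5 DMSO-only peaks lay more than 1000000 bp away, and they are named after their values were seen. Of these, the one on chromosome 14 from 6042591 to 6042644 was farthest at 2580856 bp, with 6 tags at a fold of 43.90. The interval 44024972 to 44025010 on the same chromosome held 7 tags. The rest held 6: 95285375 to 95285421 on chromosome 5, 74420895 to 74420957 on chromosome 3 and 30323787 to 30323863 on chromosome 4.

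Spacing among DMSO-only peaks had a broad main part and a small close part. The nearest other DMSO-only peak was a median of 62973 bp away (interval of the median 60668 to 65006 bp). The span divided by the number of peaks was 256803 bp. The first value is a median of the nearer gap and the second a mean of all spacing, so their difference does not measure crowding. From 30000 to 100000 bp there were 2799 peaks (33.3%), the fullest class. At the short end, 185 peaks (2.2%) had a neighbour at 30 to 100 bp, 122 (1.45%) at 100 to 300 bp and 101 (1.2%) at 300 to 1000 bp, although each of these classes covers a wider range than the one before. In all, 228 peaks (2.71%, interval 2.38 to 3.08%) had a neighbour within 100 bp. They formed 113 runs of 2 or 3 peaks, the closest 3 bp apart. Their median was 6 tags, as in the whole set. Close neighbours were more frequent among DMSO peaks in CHIR99021 peaks, of which 26.8% (24.6 to 29.1%) had another such peak within 100 bp. The rule confines those peaks to CHIR99021 peaks, which bears on their closeness, so the 2 shares are set side by side only.

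**Figure D4:**
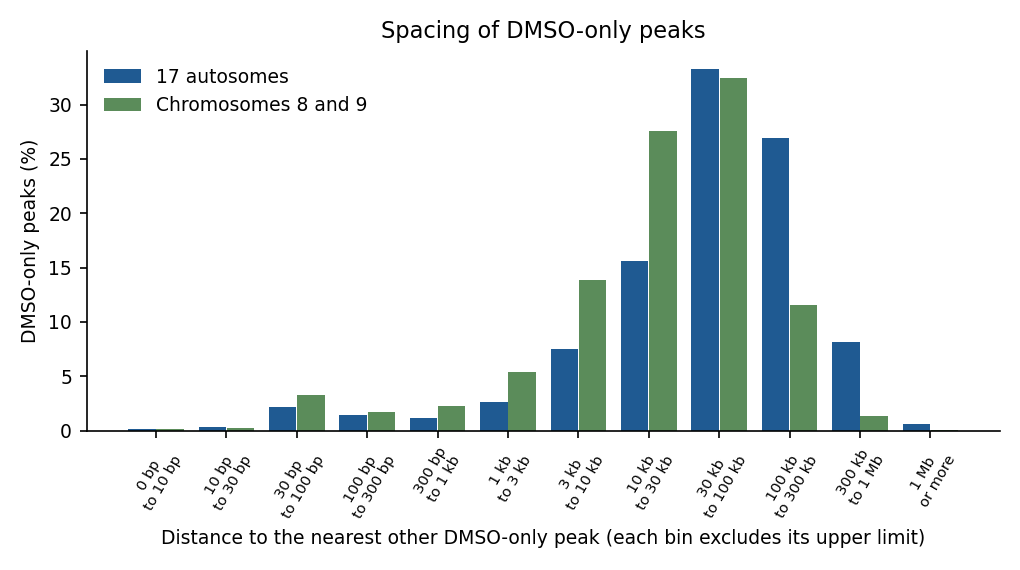
Percent of DMSO-only peaks (vertical) by distance to the nearest other DMSO-only peak (horizontal, classes from bp to Mb) on the 17 autosomes and on chromosomes 8 and 9. On the 17 autosomes the class from 30 to 100 kb holds 33.3%, and a smaller rise at 30 to 100 bp holds 2.2%.

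Clusters were defined as runs of at least 3 DMSO-only peaks with gaps of at most 10000 bp. There were 61, and they held 192 peaks (2.28%): 53 clusters of 3, 7 of 4 and 1 of 5. A further 556 pairs and 7104 single peaks made up the rest. In 55 of the 61 clusters no peak reached 10 tags, and in 30 all held 6. Their median extent was 7100 bp and their median distance to the nearest CHIR99021 peak 18227 bp. A CHIR99021 peak lay between the peaks of 7 clusters.

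The largest cluster lay on chromosome 17 (57179175 to 57192341), with 5 peaks of 6 tags each over 13167 bp, folds of 17.44 to 32.94 and the nearest CHIR99021 peak 17590 bp away. Among the clusters of 4, chromosome 3 (25417315 to 25433957) had 7, 8, 7 and 12 tags. Chromosome 6 (117857639 to 117877220) had 8, 9, 6 and 8 tags, and chromosome 4 (129676599 to 129692889) had 6, 7, 9 and 6. Close pairs of peaks made up the cluster from 36431887 to 36436029 on chromosome 7, with 6, 6, 7 and 7 tags. So it was from 26957132 to 26962671 on chromosome 12, with 6, 7, 6 and 6 tags. Tags summed to 25 in the cluster from 82960701 to 82967544 on chromosome 18 and to 24 in that from 90398368 to 90405467 on chromosome 16. That on chromosome 16 was the nearest of the 10 to a CHIR99021 peak, at 2180 bp.

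The remaining named clusters were of another make-up. On chromosome 11 (3052289 to 3063448) 3 of the tag-rich, low-fold peaks made up 454 tags. On chromosome 1 (85277025 to 85291766) a peak of 21 tags at a fold of 6.94 stood with 2 peaks of 8 tags at folds of 45.16 and 14.09, none nearer than 318103 bp to a CHIR99021 peak. A DMSO peak that was in a CHIR99021 peak lay within 1000 bp of 5 of 8408 DMSO-only peaks. The overlap rule itself keeps this count low, because a neighbour inside the same CHIR99021 peak is not DMSO-only.

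By chromosome, DMSO-only peaks numbered 3.41 per Mb on chromosome 14 to 5.35 on chromosome 11, with a median of 3.72 over the 17 autosomes. Next to chromosome 11 came chromosome 17 with 4.72 and chromosome 2 with 4.32. Chromosome 11 also had the most merged CHIR99021 regions per Mb among these autosomes, 11.4. Chromosome 17 had 10.1 such regions, chromosome 2 had 9.49 and chromosome 14 had 7.62. The 2 orders were not the same throughout: chromosome 19, with 10.9 regions, had 4.04 DMSO-only peaks, and chromosome 10, with 9.74 regions, had 3.48. The share of DMSO peaks that were DMSO-only ran from 80.1% (76.5 to 83.3%) on chromosome 10 to 88.0% (84.7 to 90.8%) on chromosome 15. The share of 6-tag peaks among them ran from 74.5% on chromosome 17 to 83.0% on chromosome 10. Their median distance to a CHIR99021 peak was shortest on chromosome 19, at 21081 bp, and longest on chromosome 18, at 37250 bp. Median length varied only from 72 to 75 bp.

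**Figure D5:**
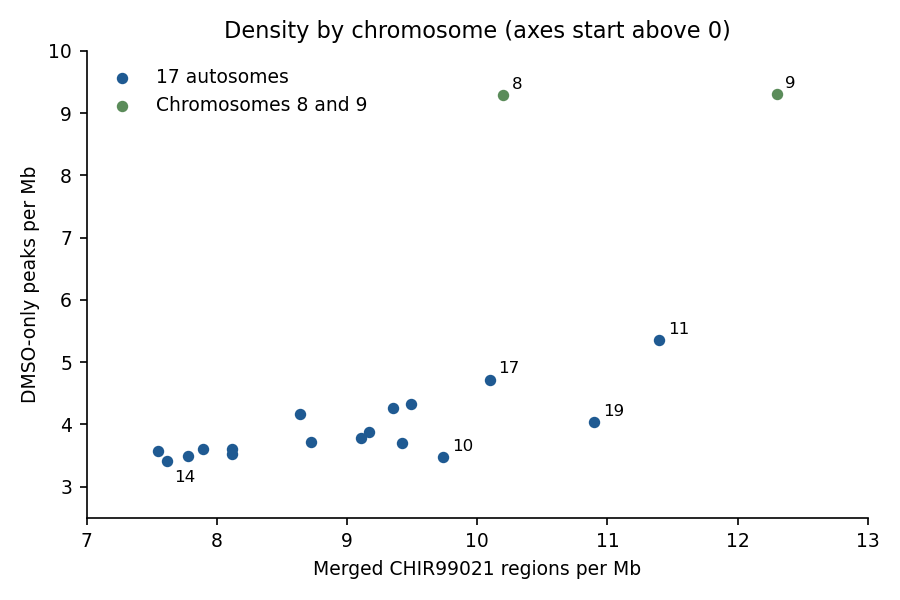
DMSO-only peaks per Mb (vertical) against merged CHIR99021 regions per Mb (horizontal), 1 point a chromosome, axes starting above 0. The 17 autosomes lie between 3.41 and 5.35 DMSO-only peaks per Mb, and chromosomes 8 and 9 lie at 9.29 and 9.30.

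On chromosomes 8 and 9, which the rule leaves out, the same kind of peak was denser: 2318 peaks at 9.29 per Mb, 2.39 times the 3.89 per Mb of the 17 autosomes. The whole DMSO list was also denser there. It held 1336 peaks over 128.6 Mb on chromosome 8 and 1286 over 120.8 Mb on chromosome 9. Chromosome 11, the densest of the 17 in DMSO-only peaks, had 745 over 118.8 Mb. DMSO-only peaks made up 88.4% of DMSO peaks on chromosomes 8 and 9 and 84.4% on the 17 autosomes. The density of the whole list therefore mostly repeats theirs and cannot show whether the excess was particular to them. Merged CHIR99021 regions, counted apart from the DMSO list, numbered 10.2 per Mb on chromosome 8 and 12.3 on chromosome 9. On the 17 autosomes they ran from 7.55 per Mb on chromosome 16 to 11.4 on chromosome 11. DMSO-only peaks of chromosomes 8 and 9 had the same median of 6 tags, a median length of 73 bp and a lower median fold (22.12 against 28.41). Their neighbours were closer (26001 bp against 62973 bp), a measure that follows density. Peaks of 6 tags made up 72.5% of them (70.6 to 74.3%). Their median distance to a CHIR99021 peak was 27304 bp (interval of the median 25718 to 28810 bp), against 30993 bp on the 17 autosomes. With 1 library per condition no test of these differences across samples was possible.

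By the authors' false discovery rate, no DMSO-only peak on the 17 autosomes stood below 3.01%, and 6332 (75.3%) stood at or below 5%. Among DMSO peaks of the same autosomes in a CHIR99021 peak the lowest rate was 0%, and 997 of 1555 (64.1%) stood at or below 5%. Among DMSO-only peaks of chromosomes 8 and 9 it was 1937 of 2318 (83.6%). In DMSO-only peaks the median rate rose over the classes of p score up to 150. It went from 3.19% at scores of 50 to 60 to 5.12% at 70 to 80 and 16.81% at 100 to 150. No peak with a score of 50 to 70 had a rate above 3.99%, and none with 80 to 150 had one below 7.38%. A rate at or below 5% thus went mostly with low scores, so the shares at that limit do not rank kinds of peak by strength. The 3 peaks with a score of 150 or more had rates of 4.17 to 16.67%, with a median of 14.75%. Of the 8408 peaks, 119 (1.42%) had a p score of at least 100, against 245 of 1555 (15.8%) among DMSO peaks in a CHIR99021 peak.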

How the data were processed

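Per the file headers, the authors ran MACS on each ChIP library with 1 input, using ELAND alignments, 25 bp tags, an effective genome size of 1.87e+09 and a p-value cutoff of 1.00e-05. No source used here gives the MACS version. Coordinates are mm9, as the submitters' processing notes list it. Per the file headers, the columns of the deposited tables are raw tag counts, the p score, the fold ratio over the local background, and the false discovery rate as a percent. Scores, folds and rates are the authors' values and were used within their own list.

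From these intervals, bases shared (at least 1), bases between neighbours, clusters, 1 Mb windows and the fold step were computed with Python 3.11.15, numpy 2.4.6, pandas 2.3.3 and scipy 1.17.1, and drawn with matplotlib 3.10.9. The interval code was tested on simulated lists. The step was the value with most folds within 0.006 of a multiple, with folds up to 15 in the CHIR99021 lists. It assumes that the background window of MACS is 2 shifts wide in all 3 runs. The 2 deposited CHIR99021 interval files repeated the tables, and the DMSO file held windows of 400 bp around the summits.

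Named regions were the 10 with most tags, the 10 of highest fold and the 5 farthest among those of at least 10 tags, the 5 longest, the 5 nearest on each side of the overlap rule and the 10 clusters with most peaks, with ties broken by p score (clusters by summed tags), then coordinate. The members, lists and alternatives were chosen with earlier results of these data known, and the depth estimate after the fold values were seen. No genome or annotation of the build was used here, so no sequence or gene is given. The input libraries were not analysed on their own.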

Additional observations from a re-analysis of the deposited data

How the results depend on the processing

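Of 47 alternative values, 26 stayed within the limits set for the main value and 21 moved. With at least 10 tags, 127 DMSO-only peaks were left (22.0% of such DMSO peaks), with medians of 11 tags, 102 bp, 6259983 bp to the next one and 28621 bp to a CHIR99021 peak, and 1 cluster. With a p score of at least 100, 119 were left (32.7%), with medians of 9 tags, 4995091 bp and 29028 bp, and 0 clusters. Fewer peaks enter under both limits. CHIR99021 peaks at a false discovery rate of at most 1% gave a share of 86.1% and a median distance of 57974 bp. The CHIR99021 streptavidin list alone gave 85.9% and 44840 bp. Counting peaks within 1000 bp as shared gave 81.7% and 32602 bp. The directions of these moves were largely set in advance. Fewer CHIR99021 peaks cannot lower the share or the distance of a given peak. The 1000 bp rule cannot raise the share or lower the median distance. A cluster gap of 1000 bp gave 7 clusters and one of 100000 bp gave 859, against 61. Windows of 400 bp left 8359 DMSO-only peaks, and a fold of at least 10 left 8352. Of the 64 named DMSO-only peaks, clusters included, 25 remained with at least 10 tags, 14 with a p score of 100, 52 with a fold of 10 and 57 with the 1000 bp rule. The depth estimate was 4260000 unique tags also from the DMSO-only peaks alone, an alternative chosen after seeing the data. No paired analysis was possible because there was a single library per group. The estimated depth of the DMSO library limits what a missing or weak DMSO call can show, and the depth of its input is unknown.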

Other observations

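DMSO-only peaks were spread unevenly over windows of 1 Mb. The 2169 windows of the 17 autosomes held a median of 3 and a mean of 3.88, with a variance of 9.7, and 268 (12.4%) held none. The fullest, on chromosome 11 (117000001 to 118000000), held 18 DMSO-only peaks beside 24 merged CHIR99021 regions. Windows on chromosome 16 (18000001 to 19000000) and chromosome 2 (152000001 to 153000000) followed with 16 each, beside 13 and 19 regions. Windows without a CHIR99021 region numbered 82 and held 0.683 DMSO-only peaks on average. The mean was 1.65 in windows with 1 to 4 such regions, 3.58 with 5 to 9, 5.0 with 10 to 14 and 6.5 with 15 or more. Across windows Pearson's r was 0.57 and Spearman's rho 0.62, as a description over windows that share libraries, mappability and base composition.

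The longest stretch without a DMSO-only peak lay on chromosome 7 (39036784 to 46530484). It spanned 7.49 Mb and held 1 merged CHIR99021 region. The next, on chromosome 14 (89463132 to 96123288), spanned 6.66 Mb and held 18. Another on chromosome 7 (6723201 to 12565373) spanned 5.84 Mb and held 11.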
